A study of Homo sapiens with 4 samples.

Results

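The MYC, MAX and MXD network is a set of transcription factors that pair through a basic helix-loop-helix leucine zipper and compete for the same DNA site, the E-box. It was taken here as 10 genes, MYC, MAX, MXI1, MXD1, MXD3, MXD4, MNT, MLX, MLXIP and MGA, by collecting every probe set that the array's annotation gives to one of them. There were 30 such probe sets, of which 27 named a member alone. These 27 covered 9 of the 10 genes, and 23 of them, from the same 9 genes, counted as measured, meaning that the mean over the arrays lay above the median of all probe sets on the array. The remaining 3 probe sets carried the names of MXD4 and of the microRNA gene MIR4800 together, so MXD4 had no probe set of its own and its values stand apart below. In the whole series 19775 genes had a probe set of their own and 12446 of them were measured.

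The samples were 4 expression arrays of MM.1S, an established human multiple myeloma line, with 1 array per group. The control cells received DMSO, the solvent, and the label gives no culture time for them. The other groups received MLN4924 at 250 nM for 8, 16 or 24 h. MLN4924 blocks the NEDD8-activating enzyme, on which the activity of cullin-RING ubiquitin ligases depends. No group had a replicate, so no test between groups was possible, every difference is that of 1 array from 1 other, and the 3 comparisons share the control array. As a stand-in for technical error, probe sets of the same gene differed among themselves with a pooled SD of 0.16, 0.19 and 0.18 (log2) at 8, 16 and 24 h over 5719 genes, and with 0.18, 0.17 and 0.15 over the 6 members with more than 1 measured probe set. That SD holds no spread between cultures and no error of an array that all probe sets of a gene share. Median intensities ran from 92.2 to 95.4 across the arrays and 3' to 5' ratios from 1.18 to 1.21 for GAPDH and from 1.95 to 2.21 for ACTB, highest on the control array for ACTB. Each of the 10 plasma cell and myeloma markers was measured, with summed intensities from 66073 to 74406 per array and SDC1 (CD138) between 2785 and 3087. Of 21 markers of other cell types with a probe set 6 were measured, with sums from 2627 to 2848, and MS4A1 and PAX5 of B cells were below the filter. The brightest of those was HBB, a globin gene, between 995 and 1219 in a probe set named _x_at, a name given where probes can match related genes. The part of such markers in the results was not tested, and fewer cells that make an RNA cannot be told apart from less of it per cell.

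MYC activates genes of growth, ribosome production and metabolism when it is bound to MAX, its obligate partner. MXD proteins (MXD1, MXI1, MXD3 and MXD4), MNT and MGA also bind MAX and repress instead, the MXD proteins and MNT through the SIN3-HDAC corepressor and MGA within a Polycomb complex called PRC1.6. A parallel arm is built on MLX, which pairs with the glucose sensor MondoA, encoded by MLXIP. Myeloma cells commonly carry high MYC activity, and MYC protein is short-lived because ubiquitin ligases, some of them cullin-based, mark it for breakdown. The arrays measured RNA and not that step.

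Of the 9 measured members MXI1 alone was at least 1.5-fold from the control, at 16 and 24 h. MNT at 8 h, at 0.44 (log2), also lay outside the middle 90% of measured genes, which ran from -0.35 to 0.34 at that time. At 8 h none of the 9 was at least 1.5-fold higher, where 0.731% of all measured genes were, and none at least 1.5-fold lower (1.12% of all measured genes). At 16 h 1 of the 9, MXI1, was at least 1.5-fold higher (2.24% of measured genes) and none lower (2.73%). The 24 h counts were again 1, MXI1, and none, beside 2.85% and 2.31% of measured genes. No member reached 2-fold at any time, a size passed in either direction by 0.249%, 0.675% and 0.707% of measured genes. The median of the 9 was 0.039, 0.046 and 0.011 (log2), beside 0.0071, 0.026 and 0.016 over all measured genes, with 5, 6 and 5 of the 9 above the control, as were 51.7%, 54.3% and 52.6% of all measured genes. Of their 23 probe sets 15, 14 and 12 were above it, beside 50.8%, 52.2% and 51.8% of all measured probe sets.

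**Figure D1:**
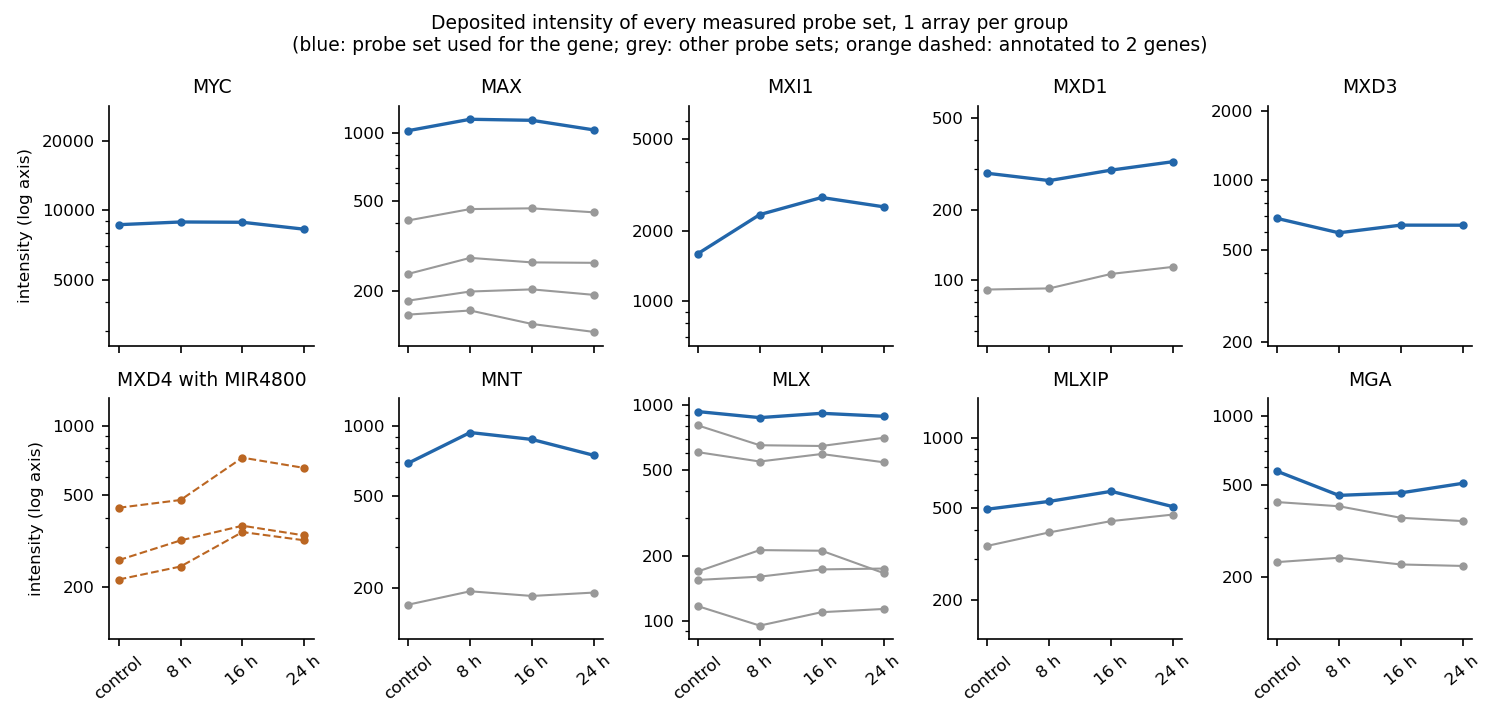
Deposited intensity (log axis) of the 23 measured probe sets with 1 member and of the 3 annotated to MXD4 and MIR4800, on the control, 8, 16 and 24 h arrays, 1 point per array. MXI1 goes from 1601 on the control array to 2799 at 16 h, while MYC stays between 8283 and 8902.

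Windows of 250 bases before the RefSeq start sites (GRCh38.p14) were read to show which members carry an E-box next to their own start, the site that all factors of this network bind. The search covered 14 windows of 9 members. MYC was left out of it, so whether MYC carries these letters before its start was not examined. Both strands were searched for CACGTG, the canonical E-box, and for ACGTG and GCGTG, the core letters of the element bound by hypoxia-inducible factors. ACGTG also lies inside CACGTG, so the first is counted within the second. CACGTG was in 3 of the 14 windows, those of MXD4, MNT and MLX, and in 6.34% of all 35116 windows. ACGTG was in 6 of the 14 (18.5% of all windows) and GCGTG in 7 (32.2%). The 3 windows of MXI1, the member highest over the control, and the 3 with CACGTG are printed 5' to 3' on the gene's strand, with the searched letters in capitals.
MXI1 upstream start, chr10:110207355-110207604, plus strand: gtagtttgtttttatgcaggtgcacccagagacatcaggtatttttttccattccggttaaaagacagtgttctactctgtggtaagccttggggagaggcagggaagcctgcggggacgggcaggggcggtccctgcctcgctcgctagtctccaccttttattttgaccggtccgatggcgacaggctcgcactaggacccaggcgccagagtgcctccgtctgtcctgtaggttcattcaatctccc
MXI1 middle start, chr10:110209981-110210230, plus strand: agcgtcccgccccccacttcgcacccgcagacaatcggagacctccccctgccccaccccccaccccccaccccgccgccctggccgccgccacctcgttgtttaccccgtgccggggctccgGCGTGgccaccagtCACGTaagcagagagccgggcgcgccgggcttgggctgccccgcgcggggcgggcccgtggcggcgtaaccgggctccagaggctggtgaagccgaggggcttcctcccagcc
MXI1 downstream start, chr10:110225746-110225995, plus strand: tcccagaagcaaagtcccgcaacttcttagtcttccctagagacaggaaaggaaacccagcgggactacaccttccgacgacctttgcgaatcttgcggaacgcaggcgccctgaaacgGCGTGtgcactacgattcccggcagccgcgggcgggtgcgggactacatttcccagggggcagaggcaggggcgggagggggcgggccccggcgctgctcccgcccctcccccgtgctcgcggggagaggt
MXD4, chr4:2262110-2262359, minus strand: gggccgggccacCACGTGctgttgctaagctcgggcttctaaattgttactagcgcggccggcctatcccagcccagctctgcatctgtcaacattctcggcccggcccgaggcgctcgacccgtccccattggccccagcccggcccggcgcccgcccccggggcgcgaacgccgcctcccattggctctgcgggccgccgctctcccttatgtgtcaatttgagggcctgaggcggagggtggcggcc
MNT, chr17:2401061-2401310, minus strand: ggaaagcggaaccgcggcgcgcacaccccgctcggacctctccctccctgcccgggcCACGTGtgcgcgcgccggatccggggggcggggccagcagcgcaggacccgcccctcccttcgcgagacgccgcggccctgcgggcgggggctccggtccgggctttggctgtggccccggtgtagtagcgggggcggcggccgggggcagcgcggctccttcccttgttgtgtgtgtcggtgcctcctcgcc
MLX, chr17:42566850-42567099, plus strand: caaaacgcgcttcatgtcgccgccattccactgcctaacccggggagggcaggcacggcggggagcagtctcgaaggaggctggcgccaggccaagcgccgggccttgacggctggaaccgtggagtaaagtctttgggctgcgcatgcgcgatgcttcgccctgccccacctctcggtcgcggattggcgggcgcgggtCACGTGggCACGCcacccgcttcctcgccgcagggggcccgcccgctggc
In MXI1 the middle window held GCGTG and, further on, ACGTG read on the other strand as CACGT, the downstream window held GCGTG, and the upstream window held none of the searched letters. The E-box began 238 bases before the start in MXD4, 193 in MNT and 50 in MLX, where GCGTG followed on the other strand. A match is a description of the sequence, and binding was not measured. The 1 probe set of MXI1 was not shown to tell its start sites apart.

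MYC itself differed little between the arrays. Its gene, 7518 bases long on chromosome 8 (127735434 to 127742951), had 1 probe set, with an intensity of 8664 in DMSO, and of 8902, 8875 and 8283 after 8, 16 and 24 h of MLN4924. The 8 and 16 h arrays were slightly above the control and the 24 h array slightly below it. These are differences of 0.039, 0.035 and -0.065 (log2), each smaller than the SD between probe sets of a gene, and they ranked inside the middle of all measured genes, above 56.8%, 51.5% and 37.0% of them. The probe set was brighter than 99.3% of those on the array, and the table gives no flag for saturation.

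MAX, the partner that MYC and its antagonists share, was also near the control. Its brightest probe set read 1019, 1144, 1132 and 1027 on the control, 8, 16 and 24 h arrays. That is 0.17, 0.15 and 0.011 (log2), with the 24 h array back at the control level. All 5 probe sets were above the control at 8 h, by 0.060 to 0.23. One of them, an _x_at probe set, took the opposite sign later and stood at -0.14 at 16 h and -0.25 at 24 h, while the other 4 stayed between 0.011 and 0.18. MAX lies on chromosome 14 from 65006101 to 65102695.

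MXI1 was the member with the largest difference at each time. It encodes a MAX-binding repressor of the MXD family and lies on chromosome 10 from 110207605 to 110287365. Its probe set read 1601 in DMSO, and 2361, 2799 and 2552 after 8, 16 and 24 h of MLN4924. All 3 treated arrays were above the control, with the 16 h array highest. The folds were 1.47, 1.75 and 1.59, or 0.56, 0.81 and 0.67 (log2), against a probe set SD of 0.16, 0.19 and 0.18. Among the 12446 measured genes it ranked 115th from the top at 8 h, 100th at 16 h and 238th at 24 h. It had no second probe set to set beside these values.

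The probe sets annotated to MXD4 and MIR4800 lay on the same side of the control as MXI1. MXD4 encodes another MXD repressor and spans chromosome 4 from 2247432 to 2262109, and MIR4800, of 80 bases, lies inside that span. The annotation gives both names to each of these probe sets and the probe sequences were not examined, so these probe sets enter no count of members. The brightest read 442 in DMSO, and 477, 727 and 656 after 8, 16 and 24 h. The next read 262, 319, 370 and 336, and the last 217, 246, 347 and 320. All 3 were higher on every treated array than on the control, and in each the 16 h array was the highest. At 16 h they stood at 0.72, 0.49 and 0.68 (log2), at 24 h at 0.57, 0.35 and 0.56, and at 8 h at 0.11, 0.28 and 0.19. Counting them as MXD4 would bring the members at least 1.5-fold higher at 16 h to 2 of 10.

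**Figure D2:**
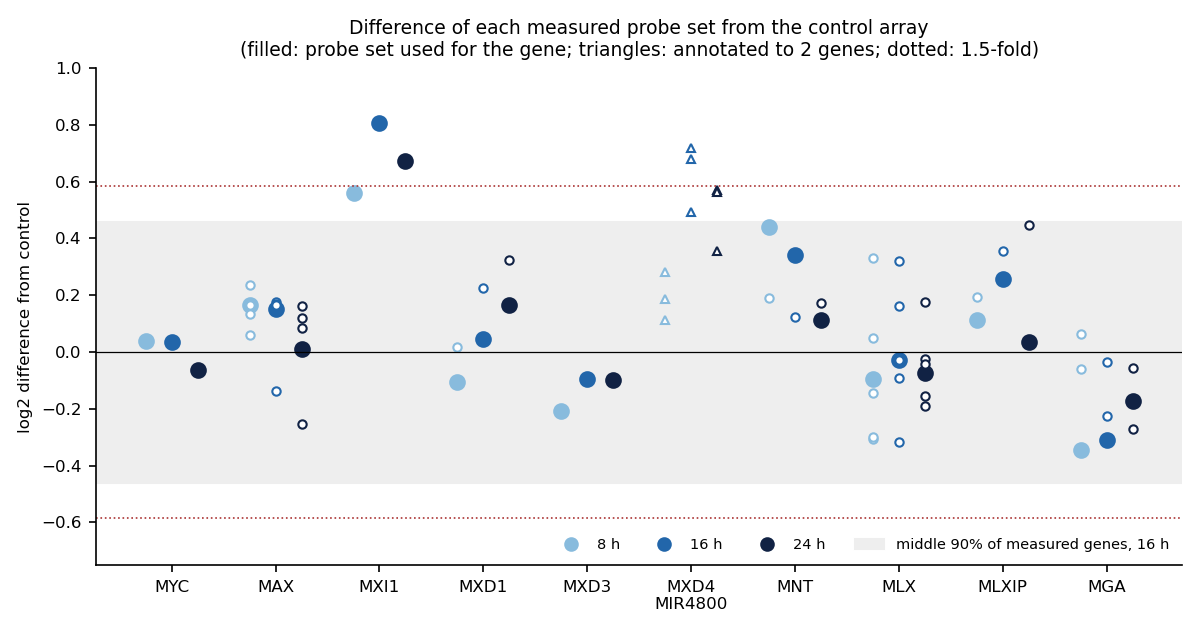
Difference from the control array (log2) of each measured probe set at 8, 16 and 24 h. Filled circles are the probe sets used for the gene, open circles the others, triangles the probe sets annotated to MXD4 and MIR4800, dotted lines mark 1.5-fold, and the grey band holds the middle 90% of measured genes at 16 h (-0.46 to 0.46). Only MXI1 at 16 and 24 h and 2 of the 3 MXD4 and MIR4800 probe sets at 16 h lie past a dotted line.

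The other MXD genes did not share the size of that difference. MXD1, the founding MAD repressor (chromosome 2, 69915109 to 69942945), read 288, 268, 298 and 324 on the control, 8, 16 and 24 h arrays, which is -0.10, 0.046 and 0.17 (log2). Its second measured probe set stood at 0.016, 0.22 and 0.32, so both were highest at 24 h, and the last probe set lay below the floor on all arrays. MXD3, an MXD member associated with dividing cells (chromosome 5, 177305499 to 177312752), had 1 probe set, which read 686, 595, 642 and 641. All 3 treated arrays were below the control, by -0.21, -0.097 and -0.098 (log2), about the size of the probe set SD or less.

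MNT, the most widely expressed antagonist of MYC, stood highest after MXI1 at 8 h. Its main probe set read 691 in DMSO, and 937, 875 and 747 after 8, 16 and 24 h. The 8 h array was the highest and the values came back toward the control after it, at 0.44, 0.34 and 0.11 (log2), and at 8 h MNT was above 97.8% of measured genes. The second probe set was smaller in size and had no such order, with 0.19, 0.12 and 0.17. MNT lies on chromosome 17 from 2384073 to 2401060.

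MGA was the lowest member at each time. It encodes a large factor that carries a T-box beside its helix-loop-helix and spans 148717 bases of chromosome 15 (41621224 to 41769940), the longest span of the 10 genes. The main probe set read 575, 452, 463 and 510 on the control, 8, 16 and 24 h arrays, all 3 treated arrays being below the control. The differences were -0.35, -0.31 and -0.17 (log2). Its other measured probe sets stood at -0.060 and 0.062 at 8 h, -0.23 and -0.034 at 16 h, and -0.27 and -0.055 at 24 h, so they took the same side at 16 and 24 h and split at 8 h. A further MGA probe set lay below the floor on all arrays.

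On the MLX arm, MLXIP, which encodes MondoA, was above the control in both measured probe sets at each time. The main one read 494, 534, 590.2 and 507 on the control, 8, 16 and 24 h arrays, or 0.11, 0.26 and 0.036 (log2), and the other 343, 392, 439 and 469, or 0.19, 0.35 and 0.45. They parted at 24 h, where the first was back near the control and the second at its highest. MLX, the partner of MondoA, read 935, 876, 918 and 889, at -0.093, -0.027 and -0.072 (log2). Its 6 probe sets went both ways, from -0.31 to 0.33 at 8 h, -0.32 to 0.32 at 16 h and -0.19 to 0.18 at 24 h, so no direction could be read for the gene. MLXIP lies on chromosome 12 (122078756 to 122147344) and MLX on chromosome 17 (42567100 to 42573203).

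The genes nearest to MXI1 over the 3 differences were EML6, GSTM4, JADE2, ANGPTL4 and CRIM1, at Euclidean distances of 0.057 to 0.084 (log2), from 4 arrays. EML6, of a family of microtubule-associated proteins, stood at 0.54, 0.80 and 0.62 at 8, 16 and 24 h. GSTM4, a glutathione S-transferase gene, stood at 0.62, 0.76 and 0.68. Its probe set was one named _x_at, with a control intensity of 79.4 that lay below the median of its array. JADE2 stood at 0.51, 0.80 and 0.74 and CRIM1 at 0.53, 0.73 and 0.68. ANGPTL4, which encodes a secreted inhibitor of lipoprotein lipase and is a target of hypoxia-inducible factors, stood at 0.57, 0.74 and 0.72. No other measured member was at least 1.5-fold different at any time, so nearest genes were sought for MXI1 alone.

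**Figure D3:**
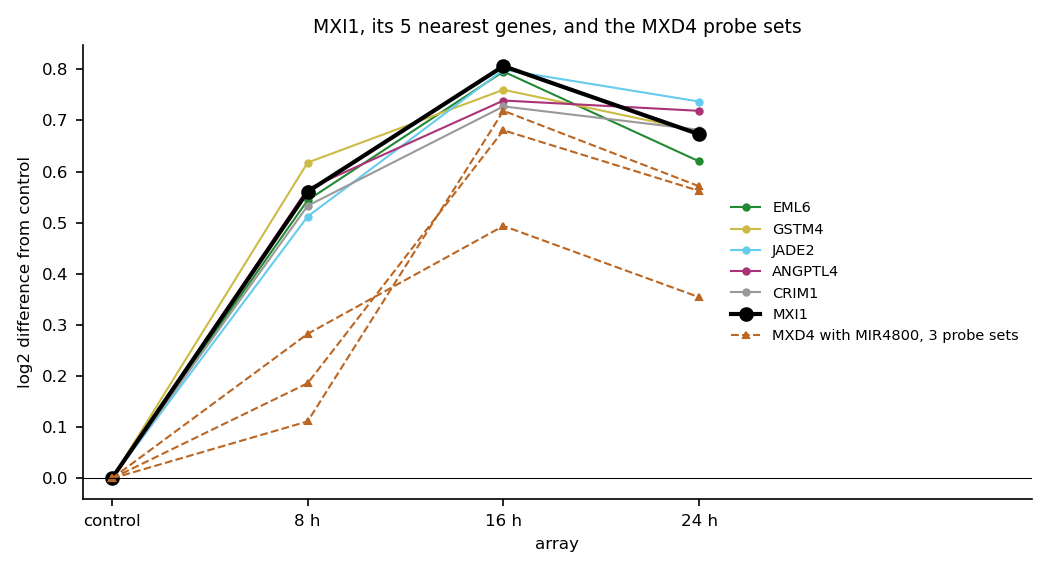
Difference from the control array (log2) of MXI1, of its 5 nearest measured genes and of the 3 probe sets annotated to MXD4 and MIR4800, on each array. MXI1 stands at 0.56, 0.81 and 0.67, and the 3 MXD4 and MIR4800 probe sets at 0.11 to 0.28 at 8 h and 0.49 to 0.72 at 16 h.

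Lists of partners and targets were read in the same way, and some genes stand on more than 1 list. Other factors that read E-boxes included the gene with the largest difference of the lists examined. BHLHE41 encodes a repressor that ties the E-box to the circadian clock. Its probe set read 720.1, 1070.3, 1689 and 1632 on the control, 8, 16 and 24 h arrays, or 0.57, 1.23 and 1.18 (log2), but it had 2 further measured probe sets, of which 1 was opposite in sign at each time, with a median of -0.019, 0.41 and 0.22 over the pair. TFE3, a factor of lysosomal and metabolic genes, stood at 0.47, 0.65 and 0.63, with a second probe set at 0.18, -0.069 and 0.028. On the low side were MYCL, a MYC paralog, at -0.55, -0.19 and -0.52 from a control intensity of 122, and TFAP4, itself known as a MYC target, at -0.41, -0.51 and -0.53. Of the 11 genes none was 1.5-fold higher at 8 h and 2, BHLHE41 and TFE3, were at 16 and 24 h, and none was 1.5-fold lower at any time. The shares of all measured genes that were 1.5-fold higher were 0.731%, 2.24% and 2.85%. The list's medians were 0.14, 0.049 and 0.0019.

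Among cofactors and corepressors of the network 1 gene passed 1.5-fold. None of the 15 measured MYC cofactors passed 1.5-fold at any time, and their medians were -0.0095, 0.045 and -0.049. The lowest was ACTL6A, a subunit of chromatin remodelling and TIP60 complexes, at -0.18, -0.51 and -0.54, and WDR5, which tethers MYC to chromatin, stood at 0.0095, -0.25 and -0.42. SMARCB1, a remodelling subunit that binds MYC, stood at 0.28 at 24 h, and BPTF, of another remodelling complex, at -0.017, -0.32 and 0.20. Of the 14 measured SIN3-HDAC genes 1 was past 1.5-fold, ING2, a reader of histone methylation, at -0.67 at 24 h, where 2.31% of all measured genes were that far lower. In that list the histone chaperone gene RBBP4 stood at -0.47 and SAP30, a SIN3 subunit, at -0.38 at 24 h (1 of the 2 other measured probe sets of SAP30 was opposite in sign there), while SUDS3, another SIN3 subunit, was above the control at each time (0.096, 0.36 and 0.29). The medians of that list were 0.0085, -0.032 and -0.053.

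Partners of MGA in PRC1.6 lay further below the control on the later arrays. The medians of 14 measured genes were 0.011, -0.073 and -0.18 at 8, 16 and 24 h, beside 0.0071, 0.026 and 0.016 over all measured genes. Below the control were 6, 9 and 11 of the 14, while 51.7%, 54.3% and 52.6% of all measured genes were above it. None of the 14 passed 1.5-fold. TFDP1, the dimer partner of E2F factors, stood at -0.25 at 16 h and -0.41 at 24 h. WDR5, which also counts as a MYC cofactor, was the lowest at 24 h. RYBP, which joins Polycomb complexes, stood the other way at 0.40 and 0.34, and TFDP2, a paralog of TFDP1, at 0.37, 0.32 and 0.080.

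Genes that set the lifetime of MYC protein had medians of 0.011, -0.023 and -0.019 over 20 measured genes. CIP2A, an inhibitor of the phosphatase that removes a stabilising mark from MYC, was the 1 gene past 1.5-fold, at 16 h, where 2.73% of all measured genes were that far lower. It read 423, 373, 245 and 287 on the control, 8, 16 and 24 h arrays, or -0.18, -0.79 and -0.56 (log2), with its second probe set at -0.14, -0.84 and -0.52. SKP2, an F-box protein that both marks and activates MYC, stood at 0.11, -0.33 and -0.30, and its second probe set at -0.15, -0.79 and -0.71. FBXO32, another F-box protein gene, stood at 0.050, 0.36 and 0.38, with a median of 1.04 and 1.16 over its 3 other measured probe sets at 16 and 24 h. SET, a further inhibitor of that phosphatase, stood at 0.0044, -0.27 and -0.33, but its second probe set stood at 0.26, -0.018 and -0.030.

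Most of the measured genes on both lists of genes that MYC activates were below the control at 16 and 24 h. The nucleolar genes, which build ribosomes, had medians of 0.078, -0.18 and -0.20 over 33 measured genes, with 11, 26 and 29 of them below the control. PUS7, a pseudouridine synthase gene, was the 1 gene past 1.5-fold, at -0.62 at 16 h (-0.12 at 8 h and -0.40 at 24 h), beside 2.73% of all measured genes that far lower at 16 h. WDR43 stood at -0.042, -0.53 and -0.31, NOP58, of the snoRNP core, at -0.061, -0.47 and -0.22, and RRS1 at -0.051, -0.32 and -0.41. Of all measured genes 54.3% at 16 h and 52.6% at 24 h were above the control.

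The growth and metabolism list went further, with medians of 0.025, -0.25 and -0.30 over 32 measured genes and 15, 27 and 27 of them below the control. At least 1.5-fold lower were 1 gene at 8 h, 3 at 16 h and 5 at 24 h, and none was 1.5-fold higher. Of all measured genes 1.12%, 2.73% and 2.31% were that far lower and 0.731%, 2.24% and 2.85% that far higher. E2F2, a driver of S phase, read 1366, 1046, 704 and 679 on the control, 8, 16 and 24 h arrays, or -0.38, -0.96 and -1.01 (log2). Its second measured probe set was smaller in size, at -0.21, -0.44 and -0.80, and short of 1.5-fold at 16 h. CDC25A, a phosphatase that activates cyclin-dependent kinases, stood at -0.020, -0.68 and -0.78, but of its 2 other measured probe sets 1 was opposite in sign at 8 and at 16 h. The medians of that pair were -0.037, -0.49 and -0.61. The G1 kinase gene CDK4 stood at -0.21, -0.58 and -0.66. CCND2, a G1 cyclin gene that myelomas with MAF activity express, was already low at 8 h, at -0.66, -0.67 and -0.68. The fifth at 24 h was TERT (-0.61), which is named because the count is small, a choice made after its value was seen. PKM, a glycolytic enzyme gene, was the highest of the list at 16 and 24 h, at 0.43 and 0.32.

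Of the 8 measured genes that MYC represses, 1 was 1.5-fold higher at 16 h and 1 was 1.5-fold lower at 16 and at 24 h, beside 2.24% of all measured genes higher at 16 h and 2.73% and 2.31% lower at 16 and 24 h. The medians were -0.015, 0.043 and 0.16, and the one at 16 h was 0.23 with the filter at the 75th percentile. GADD45A, a stress gene, stood at 0.36, 0.61 and 0.57. CDKN1A, which encodes the cell cycle inhibitor p21, went the other way and read 1324, 1092, 834 and 641 on the control, 8, 16 and 24 h arrays, each lower than the one before it (-0.28, -0.67 and -1.05). CDKN1C, the p57 gene, stood at -0.56, -0.17 and -0.31 and NDRG1 at 0.043, 0.36 and 0.24. The 2 other measured probe sets of CDKN1C had medians of -0.84, -0.28 and -0.34, past 1.5-fold lower at 8 h.

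Targets of MondoA and MLX did not take 1 direction. TXNIP, the best known of them and a brake on glucose uptake, read 1798, 1621, 2470.5 and 2873 on the control, 8, 16 and 24 h arrays, below the control at 8 h and above it later (-0.15, 0.46 and 0.68). Its 2 other measured probe sets had the same sign at each time, with medians of -0.33, 0.33 and 0.48. PFKFB3, a regulator of glycolysis, stood at 0.65, 0.32 and 0.23, while KLF10 stood at -0.57, -0.40 and -0.57 and RGS16 at -0.24, -0.48 and -0.57. The second measured probe set of RGS16 stood at -0.19, -0.82 and -0.74, past 1.5-fold lower at 16 and 24 h. The medians of the 7 measured genes were -0.15, -0.26 and -0.28. With the median of each gene's probe sets the list stood at 0.13 at 8 h, the opposite sign, and at -0.012 at 24 h, and with no filter at -0.077 at 24 h. ARRDC4, the other well known target, was below the filter.

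MXI1 is itself known as a target of hypoxia-inducible factors, and whether they had a part in its difference was not tested. The list of such targets, without MXI1, had medians of 0.062, 0.25 and 0.15 over 23 measured genes. Above the control were 15, 16 and 15 of them, and 1, 3 and 3 were at least 1.5-fold higher, with none 1.5-fold lower. Of all measured genes 51.7%, 54.3% and 52.6% were above the control, and 0.731%, 2.24% and 2.85% at least 1.5-fold higher. BNIP3L, a mitophagy receptor, stood at -0.30, 0.69 and 0.90, and P4HA1, a collagen prolyl hydroxylase, at 0.25, 0.74 and 0.75. The second measured probe set of BNIP3L stood at -0.32, 0.51 and 0.72, short of 1.5-fold at 16 h. By their main probe sets, BNIP3L, P4HA1 and ANGPTL4 were the genes past 1.5-fold at 16 and 24 h, and PFKFB3 was the one at 8 h. ANGPTL4, given above, had a control intensity of 109. The lowest of the list was HK2 at 8 and 16 h, at -0.42 and -0.47. At 24 h it was LDHA, of lactate production and also a MYC target, at -0.35.

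**Figure D4:**
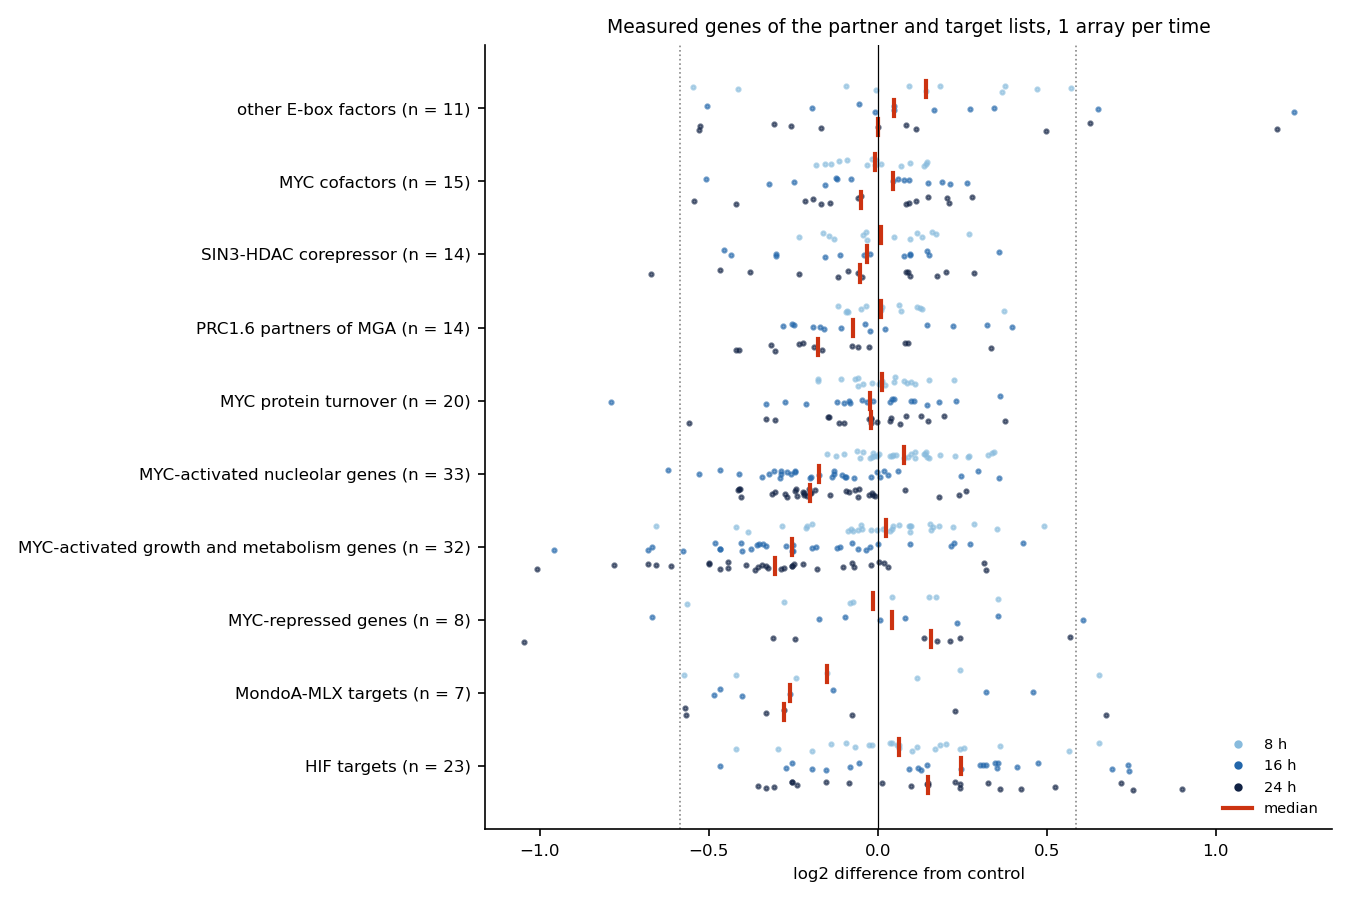
Difference from the control array (log2) of the measured genes of each partner and target list at 8, 16 and 24 h, 1 point per gene, with red bars at the medians and dotted lines at 1.5-fold. The MYC-activated growth and metabolism genes have medians of -0.25 and -0.30 at 16 and 24 h and the HIF targets 0.25 and 0.15.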

How the data were processed

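Total RNA of MM.1S cells was taken up in Trizol and made into biotin-labelled cRNA for Affymetrix arrays, per the labels' protocols. The deposited values are intensities on a linear scale, with their summary, background correction and normalization by the authors not given in the sources used here. The quartiles of the 4 arrays were nearly equal, so no normalization was added. Groups came from the sample labels, with 1 array each.

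Of 54675 probe sets, 41097 were annotated to 1 gene, 1801 to several and 11777 were not listed, and 41043 were matched to RefSeq symbols by Entrez identifier. Intensities under a floor of 48.4, their 25th percentile, were set to it before taking log2. Each gene was represented by its brightest probe set of 1 gene, which had to pass a geometric mean intensity of 93.9 to be measured. No test was run for want of replicates, and differences of at least 1.5-fold were counted. Python 3.11.15, numpy 2.4.6 and pandas 2.3.3 were used, and the counting was tested on simulated data.

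The members and lists were chosen with earlier results of these data known. Named were all members, up to 4 measured genes per list with the largest difference at any time, and the 5 genes nearest to each member at least 1.5-fold different. Other genes that are named were chosen after their values were seen. Results were recomputed under 8 other settings, and under 1 more that was added after the data were seen.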

Additional observations from a re-analysis of the deposited data

How the results depend on the processing

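The counts and medians of members and the medians of lists were recomputed with the median of each gene's probe sets, without probe sets named _x_at and _s_at, with no floor or a floor at the median, after quantile normalization or median centring, and with no filter or one at the 75th percentile. "Moved" below means by more than the SD between probe sets of a gene. The counts of members kept their values in these 8 alternatives. Counting the MXD4 and MIR4800 probe sets as MXD4, which was decided once the values were known, gave 2 members at least 1.5-fold higher at 16 h. MXI1 ranged from 0.52 to 0.57 at 8 h, 0.77 to 0.85 at 16 h and 0.62 to 0.70 at 24 h over the 9 alternatives. Of 237 recomputed values of single members 4 moved. These were MGA and MLX at 8 h (0.0014 and 0.093) and MLXIP at 24 h (0.22) with the median of probe sets, and MLX at 24 h (0.18) without _x_at and _s_at. Of 240 list medians 4 moved. The MondoA-MLX list had 0.13 at 8 h and -0.012 at 24 h with the median of probe sets, and -0.077 at 24 h with no filter, and the MYC-repressed list had 0.23 at 16 h with the filter at the 75th percentile. The cause was not tested. The medians of both MYC-activated lists at 16 and 24 h and of the HIF targets at each time kept their sign in all 8. No paired analysis was possible because each group has 1 array.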
